A study of Mus musculus with 15 samples.

Results

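The 35 genes described here carry out antigen processing and presentation on the major histocompatibility complex (MHC) in mouse B cells. They were taken as a named list by gene symbol, and all 35 were found, on 79 of the 45037 probe sets left after controls; 16439 genes carried a symbol in all. By role, 19 belong to the class II arm (11 class II molecules, chaperones and their regulator, and 8 endosomal proteases with a reductase), 13 to the class I arm (8 class I molecules and loading factors and 5 proteasome genes) and 3 are RFX transcription factors. The genes lie on several chromosomes, with 17 of them on chromosome 17, which holds the mouse MHC.

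Class II molecules take peptides cut from proteins in endosomes and show them to CD4+ T cells. The invariant chain, product of Cd74, fills their groove until endosomal proteases cut it down, after which H2-DM exchanges the last fragment for a peptide and H2-O holds H2-DM back in B cells. Class I molecules take peptides cut by the proteasome, carried into the endoplasmic reticulum by Tap1 and Tap2, and show them to CD8+ T cells. The transactivator Ciita and the RFX factors drive class II transcription from a conserved set of promoter boxes.

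Transcript levels were read on oligonucleotide arrays from splenic B cells that bound the hapten NP, in 2 screens with 15 arrays. The first screen set memory cells on 4 arrays (D to G) against naive cells on 3 (A to C), all from animals with the transgene mVh186.2, which encodes an antibody heavy chain able to form NP-binding receptors. For the second, the 4 memory arrays (EK, FG, HJ and I) came from mVh186.2 Tg splenocytes after adoptive transfer into AM14/Vk8R transgenic recipients, and the 4 naive arrays (A to D) from AA4.1-negative cells of mVh186.2 transgenic Jk KO animals; AA4.1 marks immature B cells. All groups share the mVh186.2 transgene. Within the second screen, memory state, transfer, recipient, AA4.1 gate and Jk genotype differ together between the groups and cannot be told apart. The series calls the replicates biological; the labels do not give strain or age, nor whether EK, FG and HJ are pools of animals. Dead cells were excluded and cells were held cold in azide during sorting.

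Values are log2(intensity + 1) and errors are SD between arrays. A change is memory minus naive in log2 units, given with its standard error (SE) from a limma fit. A gene was called where its Benjamini-Hochberg adjusted p, over all genes tested in the screen, was under 0.05. The share of all genes with an unadjusted p under 0.05 was not counted, so counts at that threshold stand without a comparison. The arrays' median intensity lay between 103.4 and 153.7 for the first screen and between 25.0 and 26.0 for the second. The number of arrays limits the precision. Over all genes the median SE of a change was 0.26 for the first screen and 0.09 for the second. Arrays memory G and naive C of the first screen were each closest to one another (r = 0.912 over all kept probe sets), so first-screen results are also given with that pair as a block or left out. The 6 B cell markers summed to 100800 to 134700 intensity units on memory and 124500 to 144300 on naive arrays of the first screen, and to 96440 to 103700 on memory and 95900 to 99220 on naive arrays of the second. Among them Cd79b, part of the B cell receptor, read 14.60 ± 0.08 in memory and 14.67 ± 0.04 in naive cells of the second screen. Pax5, a B cell identity factor, read 5.93 ± 1.25 in memory and 8.03 ± 1.08 in naive cells of the first screen, the memory mean below the median of all values there (log2 6.98), and was not called (adjusted p = 0.357). In sorted bulk RNA, fewer cells of a type and less RNA per cell cannot be told apart.

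Most of these genes were at similar levels in memory and naive cells. Lgmn alone was called in the first screen, lower in memory cells. That is 1 of 35 genes, where 0.828% of all 15829 genes and probe sets tested were called and 0.19% were called lower. In the second screen 12 of 35 were called, 4 higher and 8 lower in memory cells, which is 34.3% beside 26.6% of all 14658 tested (10.5% higher and 16% lower). Thus the share of called members in the second screen lay near that of all genes. With each array centred on its median the second-screen split was 2 higher and 8 lower, with 26.3% of all genes called. On the brightest probe set of each gene, changes stayed under 0.5 in size for 33 of 35 genes (first screen) and 32 of 35 (second screen). The 2 groups of arrays were fully separated for 5 genes (14.3%) in the first screen, where 11.3% of all genes were, and for 14 genes (40.0%) in the second, where 29.4% were.

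**Figure D1:**
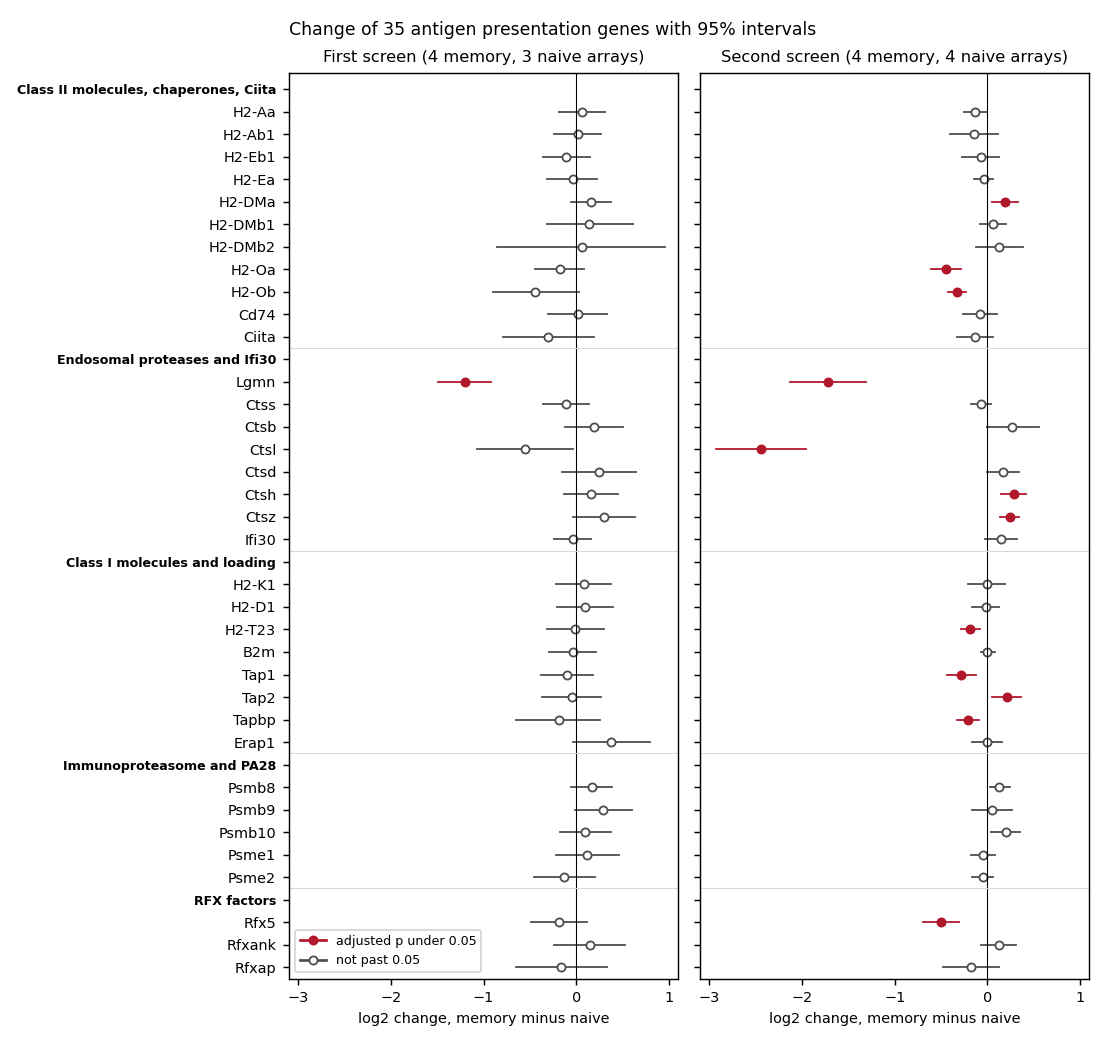
Change of each of the 35 genes, memory minus naive (log2), with its 95% interval in the first (left) and second (right) screen; filled red points passed an adjusted p of 0.05. Lgmn stands below 0 in both screens and Ctsl in the second at -2.44, while most other genes lie within 0.5 of 0.

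Within the class II arm the changes of over 1 log2 unit were in Lgmn and Ctsl, both proteases. Of its 19 genes, 1 was called in the first screen (lower), where 0.19% of all genes were called lower. In the second, 3 were called higher and 4 lower, which is 36.8% beside 26.6% of all genes. The median change over the 19 was 0.02 in the first screen, where that of all genes was 0.02, and -0.07 in the second, where that of all genes was -0.02. Centring each array on its median lowered first-screen changes by 0.19, so the signs of small changes in that screen depend on the scaling: 18 of the 35 genes were above 0 as deposited and 4 after centring.

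The peptide-binding class II chains were not called in either screen; none had an unadjusted p under 0.05 in the first and H2-Aa did in the second. H2-Aa, the alpha chain of I-A, read 15.13, 15.33, 15.46 and 15.39 on memory arrays D to G and 15.27, 15.17 and 15.36 on naive arrays A to C of the first screen. The second-screen values were 14.43, 14.58, 14.46 and 14.61 on memory arrays EK, FG, HJ and I, against 14.57, 14.72, 14.65 and 14.66 on naive arrays. The arrays of both groups overlapped in each screen, and the change was 0.06 ± 0.11 (adjusted p = 0.923) and -0.13 ± 0.05 (adjusted p = 0.119).

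H2-Ab1, the partner beta chain, read 14.74, 14.86, 14.92 and 15.12 on memory arrays of the first screen and 14.89, 14.84 and 14.95 on naive ones. Another probe set was the brightest in the second screen. There H2-Ab1 read 13.80, 14.01, 13.62 and 13.95 on memory arrays and 13.85, 13.92, 13.92 and 14.28 on naive arrays, of which D was the highest. The change of H2-Ab1 was 0.02 ± 0.11 (adjusted p = 0.982) in the first and -0.15 ± 0.11 (adjusted p = 0.372) in the second screen, with the groups overlapping in both. On the first-screen probe set its second-screen change was -0.07 (limma, adjusted p = 0.391 over all probe sets). The I-E chain genes were not called either: H2-Eb1 changed by -0.11 ± 0.11 and -0.07 ± 0.09 and H2-Ea by -0.04 ± 0.12 and -0.04 ± 0.04. H2-Ea is annotated as a transcribed pseudogene in the C57BL/6J reference. Here it was bright, at 15.14 in memory and 15.19 in naive cells of the first screen. Its second-screen means were 14.57 and 14.61. The labels do not give the strain, so the MHC sequence of these animals may differ from the reference.

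The invariant chain gene Cd74 read 15.16, 15.35, 15.61 and 15.69 on memory arrays and 15.43, 15.32 and 15.56 on naive arrays of the first screen. Second-screen values of Cd74 were 14.12, 14.33, 14.03 and 14.37 on memory arrays and 14.27, 14.37, 14.30 and 14.24 on naive arrays. The groups overlapped in both screens. The 95% interval of its change was -0.30 to 0.33 and -0.26 to 0.10. Ciita, the transactivator of class II genes, changed by -0.30 (interval -0.79 to 0.19) and -0.13 (interval -0.33 to 0.06), on different probe sets. The brightest values on any first-screen array were 15.46 to 15.86, close to those of Cd74 and the class II chains, and compression of the scale there was not tested.

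Of the 5 genes of H2-O and H2-DM, both H2-O chains were called lower in the second screen, H2-DMa was called higher, and H2-DMb1 and H2-DMb2 were not called. H2-Oa, the alpha chain of H2-O, read 11.35, 11.61, 11.39 and 11.37 on memory arrays against 11.79, 11.85, 11.86 and 12.01 on naive arrays. Every memory array lay below every naive one, and H2-Oa fell by 0.45 ± 0.07 (adjusted p = 0.002). First-screen values of H2-Oa were 13.20, 13.31, 13.00 and 13.05 on memory arrays and 13.30, 13.28 and 13.40 on naive ones, a change of -0.18 ± 0.12 (adjusted p = 0.692) with overlapping arrays.

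Its partner H2-Ob, the beta chain of H2-O, read 13.69, 13.80, 13.72 and 13.65 on second-screen memory arrays and 14.05, 13.98, 14.08 and 14.06 on naive arrays. The groups did not overlap, and H2-Ob fell by 0.33 ± 0.04 (adjusted p = 0.000665). Its second, dimmer probe set was also called lower, by 0.67 (change -0.67, adjusted p = 0.00112 over all probe sets). The brighter probe set read, in the first screen, 13.58, 13.63, 13.26 and 13.15 on memory arrays and 14.14, 14.04 and 13.35 on naive arrays, and its change of -0.44 ± 0.21 was not called (adjusted p = 0.539). Naive C was the low naive array there. With memory G and naive C as a block H2-Ob was called lower in that screen (-0.482, adjusted p = 0.0477), as it was without both (-0.600, adjusted p = 0.0189); under these settings 4.47% and 5.54% of all genes were called. The dimmer probe set changed by 0.48 ± 0.54 in that screen, the other way.

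H2-DMa encodes the alpha chain of H2-DM, the catalyst that H2-O inhibits. In the second screen it read 12.16, 12.39, 12.18 and 12.27 on memory arrays against 12.01, 12.05, 12.04 and 12.15 on naive arrays, a rise of 0.19 ± 0.06 (adjusted p = 0.0475). Memory arrays lay above naive arrays, by as little as 0.01 at the nearest pair, and the call ended in 11 of 19 alternative settings. First-screen values were 13.66, 13.74, 13.80 and 13.72 in memory and 13.55, 13.55 and 13.62 in naive cells, without overlap, and the change was 0.16 ± 0.10 (adjusted p = 0.677). The beta chain genes H2-DMb1 and H2-DMb2 were not called (0.06 ± 0.06, adjusted p = 0.494, and 0.13 ± 0.11, adjusted p = 0.428, in the second screen). The file names both under H2-DMb1; the probe sets of H2-DMb2 were told apart by their accession.

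The promoters of H2-Aa, H2-Oa and H2-Ob are shown because these genes share the class II pathway but differed in call. Below are 150 bases before the annotated start, 5′ to 3′ in the direction of the gene, from RefSeq (GRCm38.p6, a C57BL/6J genome). They lie at chr17:34287824-34287973 (minus strand), chr17:34092229-34092378 (plus strand) and chr17:34238755-34238904 (plus strand). Capitals mark the Y box core CCAAT, which on the opposite strand reads ATTGG, and the X2 box core TGACG on either strand.
H2-Aa: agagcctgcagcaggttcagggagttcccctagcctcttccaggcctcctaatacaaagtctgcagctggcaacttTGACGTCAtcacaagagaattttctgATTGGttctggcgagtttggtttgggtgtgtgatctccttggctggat
H2-Oa: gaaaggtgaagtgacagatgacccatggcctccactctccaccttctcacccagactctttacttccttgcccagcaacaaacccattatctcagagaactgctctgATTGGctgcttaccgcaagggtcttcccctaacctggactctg
H2-Ob: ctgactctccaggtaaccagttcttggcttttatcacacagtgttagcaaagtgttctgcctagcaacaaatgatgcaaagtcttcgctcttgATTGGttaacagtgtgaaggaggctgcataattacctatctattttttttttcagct

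All of these windows hold the Y box core on the opposite strand, at -48 to -44 in H2-Aa, -43 to -39 in H2-Oa and -57 to -53 in H2-Ob, counted from the start. In H2-Aa the X2 core matched on both strands, and these matches overlap. Neither H2-Oa nor H2-Ob held the letters TGACG in the 250 bases searched. The uncalled H2-Eb1, H2-DMb1 and H2-DMb2 lacked them too. Of the 7 genes of the class II molecule group with a listed promoter, H2-Aa alone held the X2 core. A relation of these cores to the calls was not tested. Of the 35 genes, 27 had a promoter in the table; H2-Ab1, H2-Ea, Cd74, Ciita, Ctsb, Ctsh, Tap2 and Rfxap had none. In the 250 bases before the start, 17 of 27 held the Y box core and 9 the X2 core, whereas over all 32851 listed starts the shares were 33.8% and 17.8%. The interferon element (GAAA, any 2 bases, GAAA) was found in 3 of 27, B2m, Ctss and H2-T23, and in 2.98% of all. Windows of 6 genes (Ctsl, Erap1, H2-DMa, H2-DMb2, H2-K1 and Rfx5) lie inside the annotated gene, downstream of its outermost start. These are matches of letters and no measure of binding.

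**Figure D2:**
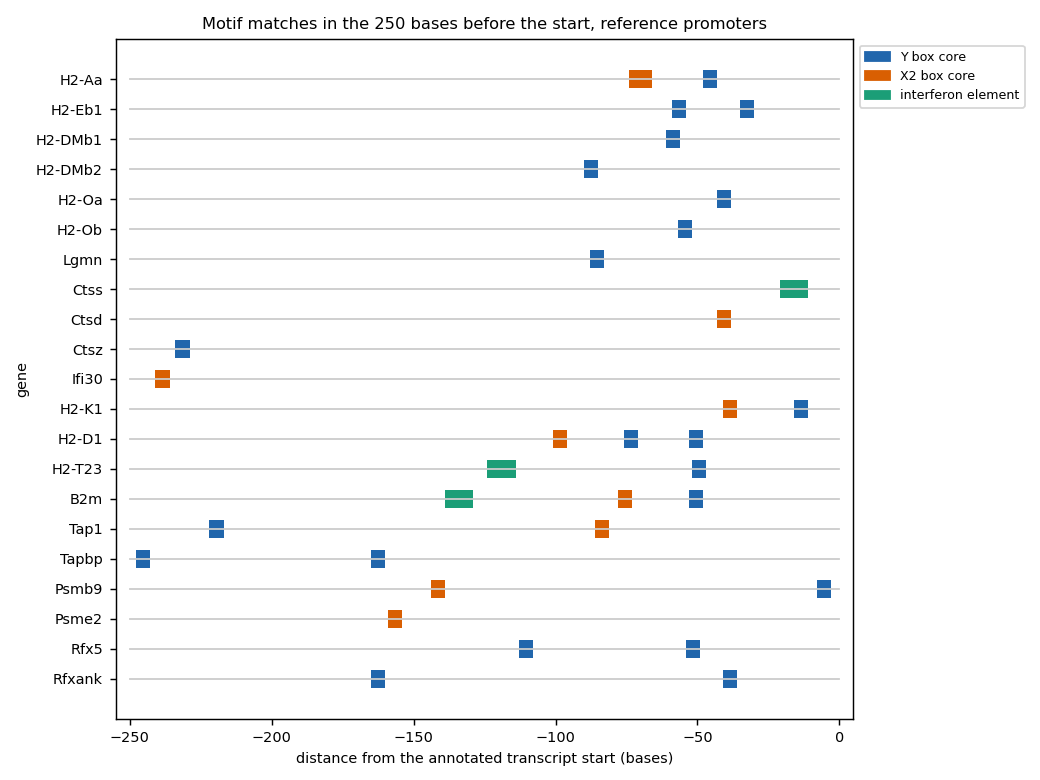
Matches of the Y box core (blue), X2 box core (orange) and interferon element (green) in the 250 bases before the start, for the 21 genes with at least 1 match; the x axis is the distance from the start in bases. Most Y box matches of the class II and class I molecules lie within 100 bases of the start.

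The endosomal proteases held the largest changes among the 35 genes. Of 8 genes in this group, 1 was called lower in the first screen, where 0.19% of all genes were. In the second, 2 were called higher (Ctsh and Ctsz) and 2 lower (Lgmn and Ctsl), where 10.5% and 16% of all genes were. Lgmn encodes legumain, an asparaginyl endopeptidase that cuts antigens and the invariant chain and activates cathepsins. It read 10.46, 10.32, 10.29 and 10.20 on memory arrays D to G of the first screen, against 11.50, 11.49 and 11.57 on naive arrays. The groups were separated by over 1 log2 unit. Lgmn fell by 1.20 ± 0.13 on average, to 0.435 of the naive level (adjusted p = 0.00228).

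On second-screen arrays Lgmn read 8.87, 9.52, 8.57 and 8.70 on memory arrays EK, FG, HJ and I, against 10.69, 10.67, 10.50 and 10.67 on naive arrays. Array FG was the highest memory array and still lay well below the naive ones. Lgmn fell by 1.72 ± 0.18 there, to 0.304 of the naive level (adjusted p = 0.000146). Its call held in all 20 alternatives of the first screen (adjusted p 6.06e-05 to 0.0426) and all 19 of the second (1.86e-06 to 0.000969). The fall was not shown to differ between the screens: the second minus the first was -0.52 ± 0.23 (adjusted p = 0.367).

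The promoter of Lgmn is printed because Lgmn was called in both screens. The 150 bases before its first listed start are at chr12:102439729-102439878 (minus strand, GRCm38.p6, RefSeq), with the opposite-strand Y box core in capitals.
Lgmn: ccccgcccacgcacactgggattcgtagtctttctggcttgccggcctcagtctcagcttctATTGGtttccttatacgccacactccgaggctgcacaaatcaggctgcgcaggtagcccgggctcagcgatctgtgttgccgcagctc

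The match lies at -88 to -84, and no X2 core or interferon element was found in the 250 bases. Ctsl encodes cathepsin L, a cysteine protease that cuts the invariant chain in thymic epithelium. On second-screen arrays it read 4.86, 5.09, 5.09 and 4.83 on memory arrays, against 7.52, 7.31, 6.82 and 7.99 on naive arrays. Memory values lay just above the filter on dim probe sets (log2 4.73, the median of all values of that screen), so the size of the fall depends on how low signals were treated. Ctsl fell by 2.44 ± 0.21, to 0.184 of the naive level (adjusted p = 5.11e-05).

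On first-screen arrays Ctsl read 7.92, 7.65, 7.39 and 7.52 on memory arrays and 8.26, 8.03 and 8.22 on naive arrays. The groups did not overlap, but the change of -0.55 ± 0.23 was not called (adjusted p = 0.469). These values too lay near the filter of their screen (log2 6.98), and the stricter filter left Ctsl out in both screens. The part of dim-signal treatment in the changes of Ctsl was not tested. The difference between the screens was itself called, at -1.90 ± 0.31 (adjusted p = 0.00676); 1.31% of 12934 genes kept in both screens were called for a difference, and Ctsl was the sole member. Sorter, labelling kit, processing, origin of the memory cells and the naive gate all differ between the screens and cannot be told apart.

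The cathepsin genes called higher rose by under 0.3. Ctsh, an aminopeptidase, read 12.79, 12.86, 12.72 and 12.88 on second-screen memory arrays against 12.58, 12.47, 12.42 and 12.64 on naive arrays, a rise of 0.29 ± 0.06 (adjusted p = 0.00819). Its first-screen values were 13.76, 13.69, 13.71 and 13.47 in memory and 13.59, 13.64 and 13.27 in naive cells, and these overlap (0.16 ± 0.13). Ctsz, a carboxypeptidase, read 14.20, 14.20, 14.06 and 14.20 on second-screen memory arrays against 13.91, 13.87, 13.94 and 13.96 on naive arrays, a rise of 0.24 ± 0.05 (adjusted p = 0.00416). All 3 kept probe sets of Ctsz were called higher in that screen. The arrays of neither gene overlapped there.

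On first-screen arrays Ctsz read 13.92, 14.31, 13.98 and 13.84 on memory arrays and 13.60, 13.59 and 13.95 on naive arrays, with naive C inside the memory range. Its change of 0.30 ± 0.15 was not called (adjusted p = 0.559). Without memory G and naive C it was called higher (0.472, adjusted p = 0.0495). Ctss, the cysteine protease that finishes invariant chain cleavage in B cells, changed by -0.11 ± 0.11 and -0.07 ± 0.05 in the first and second screens. Uncalled too were Ctsb, a cysteine protease (0.19 and 0.27), Ctsd, an aspartic protease (0.25 and 0.17), and Ifi30, a thiol reductase that opens disulfide bonds of antigens (-0.04 and 0.15). The 4 kept probe sets of Ctsb ranged from -0.10 to 0.88 in the first screen and from 0.08 to 0.39 in the second, all uncalled. Ctsb and Ctsd were called higher in the second screen only when memory HJ was left out (adjusted p = 0.0442 and 0.0492).

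**Figure D3:**
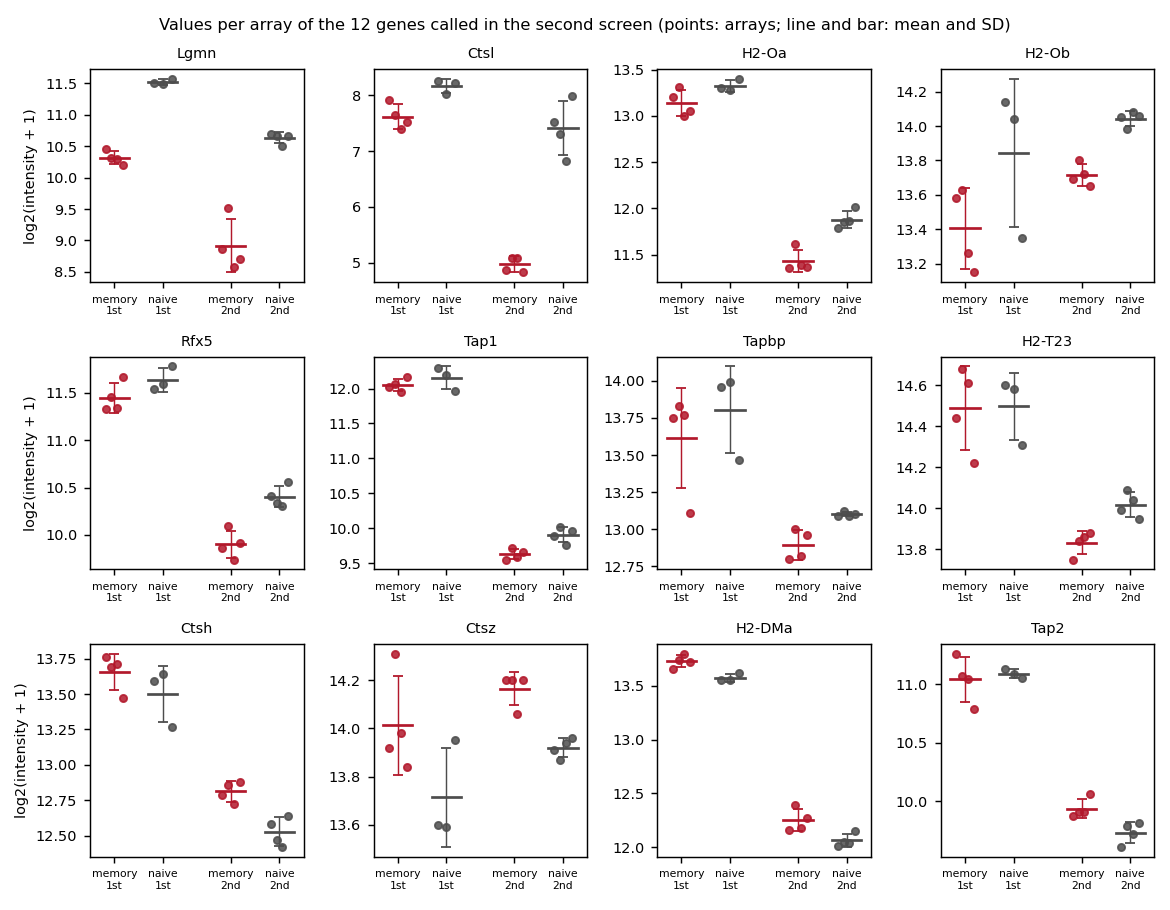
log2(intensity + 1) of the 12 genes called in the second screen, with 1 point per array, for memory (red) and naive (grey) cells of the first and second screens; lines and bars are means and SD. Lgmn memory arrays lie at 10.20 to 10.46 (first) and 8.57 to 9.52 (second), below all naive arrays of the same screen.

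Summed markers of other cells differed between the groups in several cases. In the second screen the 6 T cell markers summed to 282.7 to 387.4 units on memory arrays and 682.3 to 1042 on naive arrays, with 1 of 6 below the median intensity in mean. The 4 NK cell markers summed to 72.49 to 79.6 on memory and 114.3 to 186.5 on naive arrays, and the 5 dendritic cell markers to 132.8 to 171.3 on memory and 174.5 to 222.5 on naive arrays; 2 of 4 and 3 of 5 were below the median in mean. The 7 myeloid markers, a cell class rich in legumain and cathepsins, summed to 2632 to 5038 on memory and 1106 to 5774 on naive arrays. Of them Cd68 was called higher in second-screen memory cells (0.89 ± 0.20, limma, adjusted p = 0.01). S100a8, Csf1r, Adgre1 and Lyz2 changed by 1.52, 0.22, 0.14 and 0.01 there, all uncalled. The first-screen myeloid sum was 3520 to 7600 on memory and 1648 to 2921 on naive arrays, with 2 of 7 below the median in mean. Of these markers S100a8, Lyz2 and Cd68 changed by 3.34, 1.45 and 1.04 in the first screen, and Csf1r and Adgre1 by 0.04 and 0, all uncalled. T cell markers of the first screen summed to 921.1 to 997.1 on memory and 1075 to 1575 on naive arrays. NK markers gave 291.1 to 381.8 on memory and 207 to 217.6 on naive arrays, with all 4 below the median, and dendritic cell markers 683.3 to 951.9 on memory and 800 to 1060 on naive arrays. The 4 plasma cell markers summed to 19750 to 24760 on memory and 8348 to 10620 on naive arrays in the first screen, and to 13520 to 15230 on memory and 4141 to 6574 on naive arrays in the second. Among these Jchain alone was called, higher by 3.46 and 3.36 in the first and second screens. Xbp1 changed by -0.05 and 0.08 and Prdm1 by 0.41 and 0.10, all uncalled. Sdc1 was not tested in the first screen and changed by 0.06 in the second, uncalled. The 3 erythroid markers summed to 6662 to 29340 on memory and 1802 to 5101 on naive arrays of the first screen, without overlap and with 2 of 3 below the median in mean, and to 1712 to 4720 on memory and 2023 to 5331 on naive arrays of the second. In the first screen Alas2, a heme synthesis enzyme, changed by 3.60 ± 0.80 (adjusted p = 0.0998) and the globin gene Hba-a1 by 1.80 ± 0.50 (adjusted p = 0.19), both uncalled. No marker read 0 on any array. The part of these cells in the changes above and below was not tested.

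No gene of the class I arm changed by 0.5 or more in either screen on its brightest probe set. Dimmer kept probe sets of H2-D1 and Tap2 changed by 0.90 ± 0.86 and 0.56 ± 0.33 in the first screen, both uncalled. None of its 13 genes was called by limma in the first screen, and 0 had an unadjusted p under 0.05. In the second, 4 were called (30.8% beside 26.6% of all genes), Tap2 higher and H2-T23, Tap1 and Tapbp lower. The median change over the 13 was 0.08 in the first screen, -0.111 with median centring, and was -0.01 in the second. B2m, the light chain of every class I molecule, read 14.81, 15.09, 15.15 and 15.05 on memory arrays and 15.04, 14.99 and 15.16 on naive arrays of the first screen. In the second, on another probe set, it read 14.53, 14.58, 14.52 and 14.54 in memory and 14.54, 14.55, 14.54 and 14.52 in naive cells. The 95% interval of its change there, -0.07 to 0.08, was narrower than that of any other of the 35 genes.

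The B2m promoter is shown as one that holds all the searched elements: the interferon element (GAAACTGAAA here), the X2 core and the opposite-strand Y box core, in capitals from left to right. It lies at chr2:122147537-122147686 (plus strand, GRCm38.p6, RefSeq).
B2m: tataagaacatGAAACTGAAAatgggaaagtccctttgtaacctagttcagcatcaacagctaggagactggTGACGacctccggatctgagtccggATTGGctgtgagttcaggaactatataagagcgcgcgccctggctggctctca

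H2-K1, a classical class I heavy chain, read 14.62, 14.85, 15.04 and 15.15 on memory arrays and 14.83, 14.82 and 14.86 on naive arrays of the first screen. On its brightest second-screen probe set it read 13.36, 13.68, 13.37 and 13.66 in memory and 13.52, 13.65, 13.50 and 13.43 in naive cells. Memory arrays spread on both sides of the naive ones, and the change was 0.08 ± 0.13 and -0.01 ± 0.09. H2-D1, the other classical chain, changed by 0.10 ± 0.14 and -0.02 ± 0.07. Several probe sets of these 2 genes can also read related class I genes, so their values are uncertain as to the gene.

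H2-T23, which encodes the nonclassical molecule Qa-1, read 13.75, 13.84, 13.86 and 13.88 on second-screen memory arrays against 13.99, 14.09, 14.04 and 13.95 on naive arrays. It fell by 0.19 ± 0.05 (adjusted p = 0.0173) with no overlap, a call that ended in the 15-array fit (adjusted p = 0.263) and without naive C (adjusted p = 0.0517). Its first-screen values were 14.44, 14.68, 14.61 and 14.22 in memory and 14.60, 14.58 and 14.31 in naive cells, with a change of -0.01 ± 0.14.

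The 2 subunits of the peptide transporter moved in opposite directions in the second screen. Tap1 read 9.55, 9.71, 9.58 and 9.66 on memory arrays against 9.89, 10.01, 9.76 and 9.96 on naive arrays, and fell by 0.28 ± 0.07 (adjusted p = 0.0165). Tap2 read 9.87, 9.91, 9.91 and 10.06 on memory arrays against 9.61, 9.79, 9.72 and 9.81 on naive arrays, and rose by 0.21 ± 0.07 (adjusted p = 0.0494). Neither gene's arrays overlapped. The call of Tap2 ended in 13 of 19 alternatives and that of Tap1 in 1, without memory EK (adjusted p = 0.0513).

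On first-screen arrays Tap1 read 12.02, 12.06, 11.95 and 12.16 in memory and 12.29, 12.20 and 11.97 in naive cells, and Tap2 read 11.26, 11.07, 11.04 and 10.79 in memory and 11.13, 11.09 and 11.05 in naive cells. Both overlapped, with changes of -0.10 ± 0.13 and -0.05 ± 0.14. Tap1 and the immunoproteasome gene Psmb9 start back to back, and their 300-base promoter windows overlap by 275 bases on opposite strands. Psmb9 changed by 0.05 ± 0.10 in the second screen, where Tap1 fell; the difference between both genes was not tested.

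Tapbp encodes tapasin, which bridges class I molecules to the transporter. It read 12.80, 13.00, 12.82 and 12.96 on second-screen memory arrays against 13.09, 13.12, 13.09 and 13.10 on naive arrays, and fell by 0.21 ± 0.05 (adjusted p = 0.0198) without overlap. That call ended in 4 of 19 alternatives: in the 15-array fit (adjusted p = 0.484), with the mean of its probe sets (adjusted p = 0.217), and without naive B (adjusted p = 0.0506) or memory EK (adjusted p = 0.0522). On first-screen arrays Tapbp read 13.75, 13.83, 13.77 and 13.11 in memory and 13.96, 13.99 and 13.47 in naive cells, where memory G and naive C were the low array of each group (-0.19 ± 0.20). Erap1, which trims peptides in the endoplasmic reticulum, changed by 0.38 ± 0.19 (adjusted p = 0.559) in the first screen and by 0.00 ± 0.07 in the second.

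None of the 5 immunoproteasome and PA28 genes was called by limma in either screen; at an unadjusted p under 0.05 there were 0 in the first and 2, Psmb8 and Psmb10, in the second. Psmb8, Psmb9 and Psmb10 encode the catalytic subunits of the immunoproteasome. Psmb8 changed by 0.17 ± 0.10 and 0.13 ± 0.05, and its memory and naive arrays did not overlap in either screen (adjusted p = 0.663 and 0.0685). Psmb10 changed by 0.10 ± 0.12 and 0.20 ± 0.07 (adjusted p = 0.881 and 0.065), with no overlap in the second. Psmb9 changed by 0.29 ± 0.14 in the first screen, also without overlap (adjusted p = 0.533). After quantile normalization Psmb8 and Psmb10 were called higher in the second screen (adjusted p = 0.0448 and 0.0331). The PA28 genes Psme1 and Psme2, whose products open the proteasome, changed by 0.12 ± 0.15 and -0.13 ± 0.15 in the first and by -0.05 ± 0.06 and -0.05 ± 0.05 in the second screen.

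Of the RFX factors, Rfx5 was lower in second-screen memory cells. The RFX complex of Rfx5, Rfxank and Rfxap binds the X box of MHC promoters. Rfx5 read 9.86, 10.09, 9.74 and 9.91 on memory arrays against 10.41, 10.34, 10.31 and 10.56 on naive arrays, and fell by 0.50 ± 0.09 (adjusted p = 0.00255) without overlap. Its first-screen values were 11.33, 11.46, 11.34 and 11.67 in memory and 11.54, 11.59 and 11.78 in naive cells, an overlapping change of -0.19 ± 0.14 (adjusted p = 0.74). Rfxank (0.12 ± 0.08) and Rfxap (-0.18 ± 0.13) were not called in the second screen on their brightest probe set. The 4 kept probe sets of Rfxank ranged from -0.32 to 0.12 there and the 2 of Rfxap from -0.47 to -0.18, with 1 of each gene called lower.

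**Figure D4:**
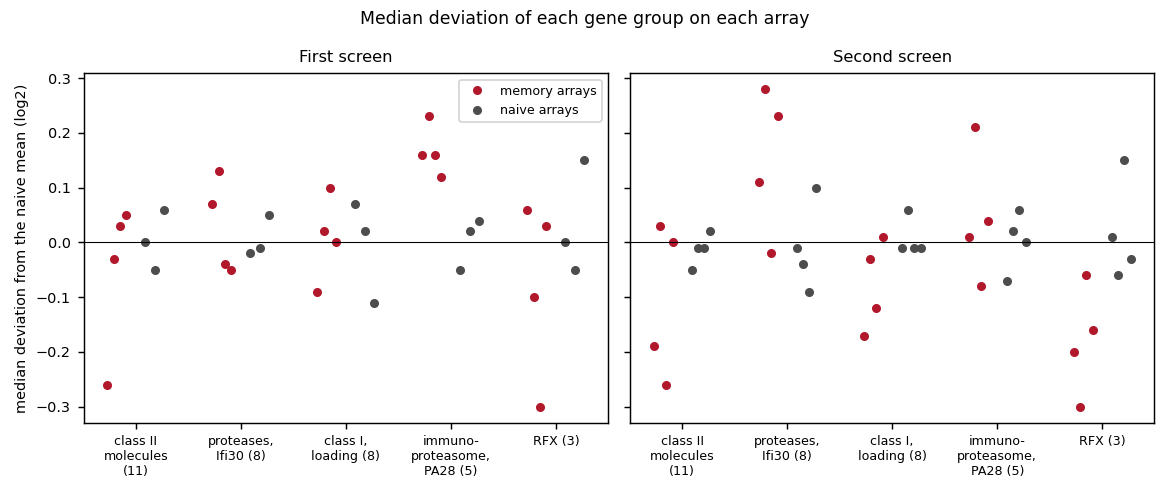
Median over each gene group of an array's deviation from the naive mean of its screen (log2 units), 1 point per array, memory (red) left of naive (grey); the number of genes is in brackets. The medians lie within 0.3 of 0 for every group and array.

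By sign alone, called or not, 25 of the 35 genes had the same sign of change in both screens, 14 lower and 11 higher in memory cells, on the values as deposited. These signs include changes smaller than their SE. With each array centred on its median, 4 of the 35 first-screen changes were above 0, where 18 were as deposited. The brightest probe set differed between the screens for H2-Ab1, H2-DMb2, Ciita, H2-K1, H2-D1 and B2m. The share of equal signs over all genes was not counted, so the count of 25 is no measure of agreement. The screens share no array, and Lgmn was the sole gene called in both.

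Other genes of these pathways, from lists that hold none of the 35, were counted alongside. First-screen limma tests called none of the 15 other class I genes, 8 other class II genes and 16 upstream factors measured, beside 0.828% of all genes. In these lists 2, 1 and 2 genes had an unadjusted limma p under 0.05, a share not counted over all genes. In the second screen 10.5% of all genes were called higher and 16% lower. Of 16 other class I genes there, 0 were called higher and 3 lower. These were Cd1d1, which presents lipids (-1.03 ± 0.13, adjusted p = 0.00042), Psme4, a proteasome activator (-0.37 ± 0.05), and Blmh, a peptide-trimming protease (-0.29 ± 0.05). Of 8 other class II genes 2 were called higher, Ctsc, a dipeptidyl peptidase (0.62 ± 0.05, adjusted p = 5.49e-05), and Cst3, an inhibitor of cathepsins (0.46 ± 0.08). Called lower were 4: the tetraspanin Cd9 (-2.36 ± 0.13, adjusted p = 3.44e-06), the ubiquitin ligases Marchf8 (-0.75 ± 0.12) and Marchf1 (-0.28 ± 0.05), which direct class II molecules to degradation, and the cathepsin inhibitor Cstb (-0.24 ± 0.07, adjusted p = 0.03). The call of Cstb ended in 8 of 19 alternatives, with adjusted p up to 0.312 in the 15-array fit; the arrays whose omission ended it were memory FG and I and naive A, C and D.

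Among 16 upstream factors 1 was called higher in the second screen and 4 lower, where 10.5% and 16% of all genes were. Nfya and Nfyb encode subunits of the factor that binds CCAAT, and they moved apart: Nfya rose by 0.32 ± 0.10 (adjusted p = 0.0422), a call lost in 11 of 19 alternatives, and Nfyb fell by 0.60 ± 0.09 (adjusted p = 0.00125). The interferon regulatory factor genes Irf8 (-0.99 ± 0.11) and Irf2 (-0.34 ± 0.08) were also called lower; the call of Irf2 ended in the 15-array fit (adjusted p = 0.141) and without naive A (adjusted p = 0.0529). Cd9 was also lower in first-screen memory cells without overlap (-1.55 ± 0.57, adjusted p = 0.366), uncalled. The lists' Nlrc5, Tapbpl, Napsa, Cd63 and Irf1 were not named in the annotation used here.

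Memory G and naive C stood apart in these genes about as often as in all kept probe sets. Of the 72 kept probe sets of the 35 genes in the first screen, both arrays lay above the other 5 in 12 and below them in 13, which is 34.7% beside 33.4% of all 23813 kept probe sets. The gap was over 1 log2 unit in 4 of these 72, and in 706 of all 23813. The second probe set of Tapbp read 11.56 on memory G and 11.60 on naive C, against 7.94, 8.24 and 8.22 on memory D, E and F and 7.80 and 7.62 on naive A and B. The brightest probe set of Tapbp was lower on the same pair. Both groups held 1 such array, so the pair widens the spread of each. A probe set of Ctsb read 11.83 on memory G and 11.17 on naive C, where the other 5 arrays read 8.29 to 9.94. What sets this pair apart was not tested.

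**Figure D5:**
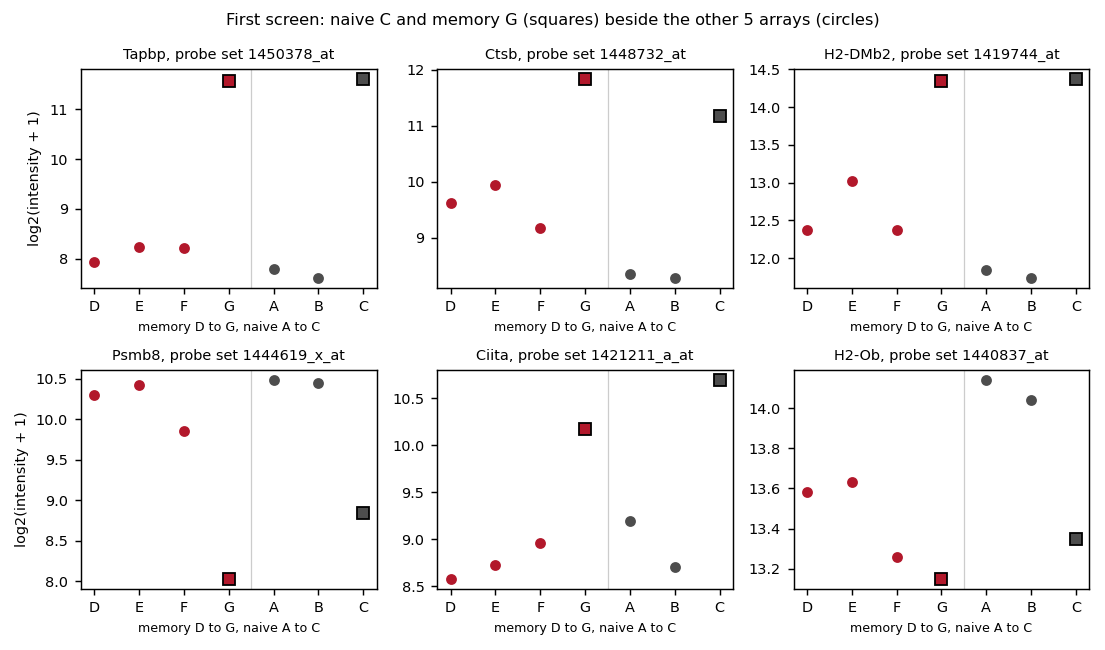
log2(intensity + 1) on each first-screen array for 6 probe sets, memory D to G left of naive A to C, with memory G and naive C as squares. For Tapbp, Ctsb, H2-DMb2 and Ciita both squares lie above the other 5 arrays, for Psmb8 both lie below, and for H2-Ob memory G and naive C are the lowest array of their group.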

How the data were processed

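Each array was deposited as linear-scale intensities, 1 per probe set. Second-screen intensities were made by the authors with GCRMA, per the submitters' processing notes; the version, and the software of the first screen, are not given in the sources used here. Per the labels' protocols, first-screen cells were sorted on a FACSVantage SE and labelled with EnzoBio reagents, second-screen cells on a FACSAria and labelled with MessageAmp. Such differences, like GCRMA's treatment of dim signals, can change levels, so each screen was fitted alone.

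Probe sets were named by the gene symbols of the deposited second-screen table, updated through RefSeq synonyms; 64 controls were left out. Values became log2(intensity + 1). Probe sets above the screen's median (log2 6.98 and 4.73) on 3 or more arrays (first screen) or 4 or more (second) were kept. This left 23813 and 22638. In each screen the brightest kept probe set per gene was tested, so some genes were read on different probe sets in the 2 screens. Memory was compared with naive cells with limma 3.58.1 under R 4.3.3, using lmFit, eBayes with trended prior variance and Benjamini-Hochberg adjustment; the difference between screens was a contrast in a fit of all 15 arrays. The limma step was tested on simulated data; Python 3.11.15 with pandas 2.3.3 read the tables. Values per array are given for called genes, H2-Aa, H2-Ab1, Cd74, B2m and H2-K1, and called genes of the other lists are named, at most 6 a list. Members and lists were chosen with earlier results of these data known. Alternatives changed the filter, scaling, pseudocount (16), probe set rule, eBayes settings, array weights and arrays, including memory G and naive C. The values of 1 upstream factor that was counted are not reported here.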

Additional observations from a re-analysis of the deposited data

Results flagged for a closer look

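In 8 of 105 groups of 4 arrays, 1 array lay far from the other 3, its gap to the nearest as a share of the group's range being over Dixon's critical value; chance flags about 1 in 20 groups. In first-screen memory cells these were Ifi30 on array E, high at 14.75 (share 0.965), and Tapbp on array G, low at 13.11 (0.890). In second-screen memory cells they were H2-Oa on FG, high at 11.61 (0.875), Ctss on FG, high at 14.07 (0.858), and Ctsz on HJ, low at 14.06 (0.986). In second-screen naive cells they were H2-Ab1 on D, high at 14.28 (0.830), Lgmn on C, low at 10.50 (0.853), and Tapbp on B, high at 13.12 (0.870). The change of Ctsl differed between the screens by -1.90 ± 0.31 (second minus first).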

How the results depend on the processing

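No paired analysis was possible because memory and naive arrays of a screen share no replicate letter. In the first screen 1 gene was called (Lgmn) in each setting but 3. Array weights gave 3 (Ctsz higher, H2-Ob and Lgmn lower), memory G and naive C as a block gave 2 and leaving out both gave 3. Of all genes, 5.71%, 4.47% and 5.54% were called in these settings, beside 0.828% in the main fit. In the second screen the count of 12 became 5 in the fit of all 15 arrays (Ctsl, H2-Oa, Lgmn, Rfx5 and Tap1). There 14.1% of all genes were called, beside 26.6% in the main fit. The second-screen count was 9 to 14 when each array was left out in turn, with 20.4% to 28.6% of all genes called. The count for the difference was 1 to 2 with each array left out, where 0.588% to 4.04% of all genes were called. It was 2 without second-screen memory FG, when Lgmn joined Ctsl. The difference for Ctsl was called in each of its alternatives, with the highest adjusted p of 0.0461. Rfxank was called lower in the second screen when every probe set was tested (-0.324, adjusted p = 0.0214), reversed from 0.12 on its brightest probe set; Rfxap was also called lower then (-0.473). Second-screen calls of Lgmn, H2-Oa, Rfx5 and, where it passed the filter, Ctsl held in every alternative run; the stricter filter left Ctsl out. H2-T23 lost its call without naive C (adjusted p = 0.0517), Tapbp with the mean of its probe sets (0.217), and Ctsh, Ctsz and H2-Ob in the 15-array fit (0.0511, 0.145 and 0.18). The causes were not tested. Dim genes such as Ctsl in second-screen memory cells are limited by signal over background.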
